A study of Oryza sativa with 12 samples.

Results

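Leaves of the rice genotype FR13A were compared with leaves of the rice genotype Goda Heenati in seedlings that had not been submerged. The comparison took the control samples by their titles, 3 of FR13A and 3 of Goda Heenati, which are 6 of the 12 samples of the study. The seedlings of both genotypes were 14 d old, had been raised unfertilised in pots of paddy soil in a glasshouse, and stood in a tank that held no water. The other 6 samples, 3 of FR13A and 3 of Goda Heenati, came from seedlings kept under water 70 cm deep for 3 d. They are used here to see whether a difference found in control leaves was also present there, and in the estimate of spread. Each sample pooled leaves of about 20 plants, so the spread among plants was not measured, and the samples of a group are named as biological replicates. A difference between 2 genotypes belongs to the whole genotype and cannot be assigned to a single locus.

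Rice genotypes differ from each other in gene content and in sequence as well as in gene regulation, and oligonucleotide arrays are designed on one reference sequence. FR13A is a flood-tolerant landrace known as the donor of the SUB1 locus, a small cluster of ethylene response factor (ERF) genes on chromosome 9 that shapes growth and metabolism under water. Ethylene, gibberellin and alcoholic fermentation are the pathways best known in this setting. On an array a gene reads low in one genotype when its transcript is scarce, when the gene is missing, or when its sequence differs under the probe, and these cannot be told apart in the values reported here. In whole leaves, fewer cells of a type and less RNA per cell cannot be told apart either.

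On the 6 control arrays 31378 to 34291 of 42418 probes read well above background. Levels are log2 processed signal relative to the 75th percentile of the array, and each difference is FR13A minus Goda Heenati on that log2 scale. The value after ± is its standard error (SE) in limma, with n = 3 arrays in each group, and so few arrays limit the precision. Across genes, control arrays of the same genotype correlated with r from 0.939 to 0.958, and arrays of the 2 genotypes with r from 0.902 to 0.913 on the same slide and from 0.859 to 0.875 on different slides. The median SD over 3 arrays was 0.41 in FR13A and 0.39 in Goda Heenati on the log2 scale. Each slide held 1 array of every group at the same position, so position and group cannot be told apart. Slide 1 had 1837 and 2406 saturated probes on its FR13A and Goda Heenati control arrays, while the other control arrays had 0.

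The labelled tissue showed in its markers. The leaf genes RCA, Cab1R and Cab2R, which encode Rubisco activase and light-harvesting proteins, were well above background on all control arrays. On slides 2 and 3 their levels lay between 5.74 and 6.75 in FR13A and between 5.39 and 6.67 in Goda Heenati. On slide 1, where all 3 were saturated in both genotypes, they were lower. The 3 log2 differences were 0.23 to 0.27 and none was called. The summed signal of the 3 measured root markers was 0.573 to 1.02 times the array's 75th percentile in FR13A and 0.474 to 0.580 times in Goda Heenati. That of the 2 markers of meristem and vein was 1.42 to 2.36 times in FR13A and 1.23 to 2.46 times in Goda Heenati. None of the 4 measured genes of chlorophyll breakdown, used as markers of senescing leaf, was called, with log2 differences of -0.26 to 0.15.

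The standing difference between the genotypes was wide, close to even in direction, and extended to genes read well above background in one genotype and at background in the other. A gene was called at a Benjamini-Hochberg adjusted p under 0.05 in limma and at least a 2-fold difference. Of 22738 tested genes 1918 were called, which is 8.44%, with 936 (4.12%) higher and 982 (4.32%) lower in FR13A. Called genes had a median log2 difference of 2.40 where FR13A was higher and of -2.87 where it was lower. The most extreme values were 11.54 and -11.55. At 5 or more on the log2 scale there were 146 higher and 191 lower genes. Every called gene kept its direction on each slide where both genotypes had a value. The calls came from these same arrays, so this adds no separate support. The median log2 difference over all tested genes was 0.03, and 85.55% of genes lay within 1 of zero difference.

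**Figure D1:**
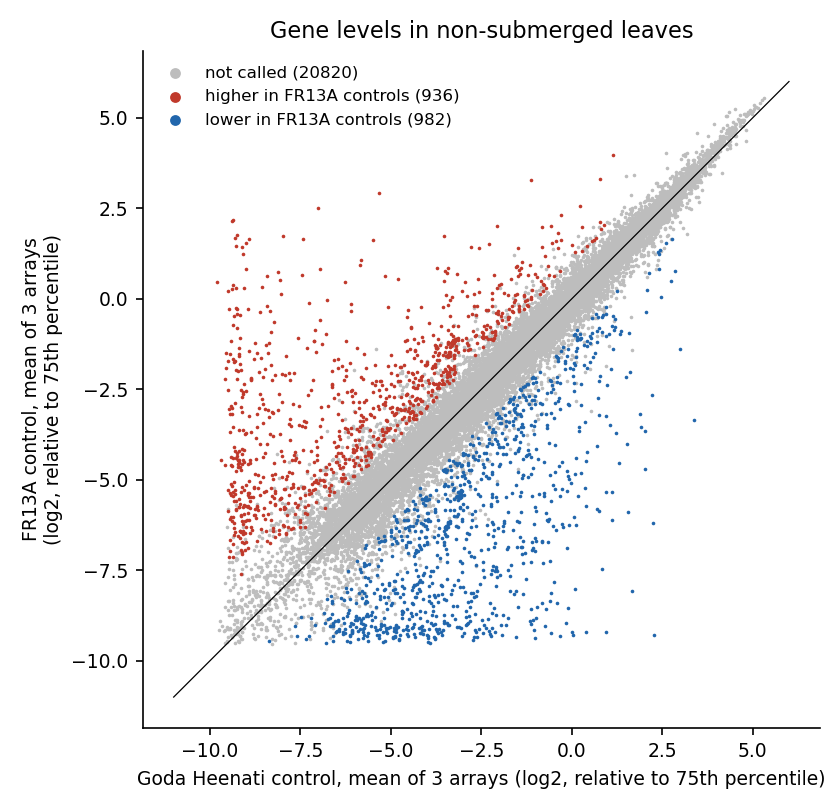
Mean level over 3 control arrays in FR13A (vertical axis) against Goda Heenati (horizontal axis), both log2 relative to the array's 75th percentile, with 1 point per tested gene and the diagonal of equal level drawn. The 936 genes called higher in FR13A lie above the diagonal and the 982 called lower lie below it, many of them along the left and bottom edges where one genotype read near background.

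Many of the called genes were measured above background in both genotypes. Of the 19756 genes well above background on all 6 control arrays 925 were called, 4.68%, with 489 higher and 436 lower in FR13A. A further group was read in one genotype alone. In FR13A alone, 248 genes were well above background on all 3 control arrays with 0 of 3 Goda Heenati control arrays above it, and 236 of these were called. In Goda Heenati alone there were 330, of which 302 were called. The bound was taken against the lowest signal that counts as above background, or the probe's own where that was larger. Its median was 15.9-fold higher in FR13A for the first group and 17.7-fold lower in FR13A for the second. The bound reached at least 100-fold for 49 genes of the FR13A group and for 35 of the Goda Heenati group. These counts depend on single arrays through the background flag. Without Goda Heenati control replicate 3 the FR13A group held 391 genes, and without FR13A control replicate 3 the Goda Heenati group held 444.

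The submerged arrays gave the same reading for many of the genes and the opposite for none of them. They took no part in the background rule of these groups, but they helped to choose the probe of each locus. All 3 submerged FR13A arrays and no submerged Goda Heenati array were above background for 154 of the 248 genes. All 3 submerged Goda Heenati arrays and no submerged FR13A array were above it for 158 of the 330. For 189 of the 248 no submerged Goda Heenati array read above background, and for 218 of the 330 no submerged FR13A array did.

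Loci are not all independent measurements, since some share the sequence record from which their probes were made. The probe name gives the sequence record from which the probe was made. For 723 of 22593 tested loci that record was also given for another locus, and 185 of these loci (25.6%) were called. The 185 called loci came from 47 sequence records. One record stood for 23 tested loci on 11 chromosomes, all called lower in FR13A with log2 differences of -2.44 to -2.06. Another stood for 22 loci on 8 chromosomes, all called higher with differences of 1.90 to 2.25. Such near-equal values enter the counts once per locus, and whether the probes are the same was not tested. Among the 21870 loci with a record of their own 1732 were called, 7.92%, with 852 higher and 880 lower in FR13A. Of the 151 measured listed genes 150 have a record of their own, the exception being RCCR1 (Os10g0389200) of chlorophyll breakdown, and so have the 4 unnamed loci below.

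Loci with several kept probes all called alike, and called the same way under submergence, were ranked by their gaps. The widest belonged to loci for which no gene name is given. Their probe agreement and their direction under submergence were set by that choice. Os09g0340400 had levels of 1.43, 2.23 and 1.6 in FR13A, against -8.75, -9.17 and -9.83 in Goda Heenati. All FR13A arrays were high and the groups were far apart, with no Goda Heenati array above background. It was at least 1277-fold higher in FR13A (log2 difference 11 ± 0.40, limma adjusted p = 7.22e-08), and its 3 probes gave 10.62 to 11.22. The log2 difference under submergence was 11.23. Its profile over 12 arrays was matched by 2 other loci, to within a mean of 0.25 on the log2 scale and with r over 0.98, so it may not be the only locus read.

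Os01g0114300 had levels of 0.74, 0.14 and -0.20 in FR13A, against -9.01, -9.38 and -10.08 in Goda Heenati. The FR13A arrays were again all high, and 0 of 3 Goda Heenati arrays read above background. It was at least 443-fold higher in FR13A (log2 difference 9.72 ± 1.09, limma adjusted p = 0.00015). Its 2 probes gave 9.61 and 9.72 in control leaves, and under submergence, with 1 Goda Heenati array above background, the log2 difference was 6.09.

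The opposite pattern was as clear at Os08g0198700, with levels of -9.04, -8.93 and -9.63 in FR13A and of 0.81, 1.26 and 0.78 in Goda Heenati. No FR13A control array was above background. The locus was at least 1051-fold lower in FR13A (log2 difference -10.15 ± 1.1, limma adjusted p = 0.00011). Under submergence, where 2 FR13A arrays read above background, the log2 difference was -7.74. Os12g0239300 had levels of -7.45, -8.54 and -8.18 in FR13A and of 1.55, 2.07 and 1.40 in Goda Heenati. Here too every Goda Heenati array was high and no FR13A array was above background, under water as well as in controls. The locus was 851-fold lower in FR13A (log2 difference -9.73 ± 0.53, limma adjusted p = 8.91e-07), an estimate and not a bound. Its 2 probes gave -9.73 and -10.38.

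Genes with a name were few among those called. The lists of named genes, for flooding, hormones, metabolism, defence, flowering, nutrients and plant form, held 171 loci, of which 151 were measured. Of these 5 were called (3.31%, against 8.44% of all tested genes), with 2 higher and 3 lower in FR13A. Of the 151, 134 were well above background on all 6 control arrays, and of the 5 called genes IRT1 alone was among these 134. Among all tested genes above background on all 6 control arrays, 4.68% were called. That share is for another set of genes than the 3.31%. The median log2 difference over the 151 was 0.10, and 130 (86.1%) lay within 1 of zero difference, against 85.55% of all genes. The called genes were KSL10, ACO1, HB2, Ehd2 and IRT1.

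KSL10 (Os12g0491800), a diterpene synthase of the pathway to the antimicrobial oryzalexins, had the largest difference of any listed gene. Its levels were -9.09, -9.0 and -9.67 in FR13A, against -2.71, -2.17 and -1.93 in Goda Heenati. All FR13A arrays were at background and all Goda Heenati arrays well above it, with no overlap. The gene was at least 113-fold lower in FR13A (log2 difference -6.98 ± 0.74, limma adjusted p = 9.87e-05). On the submerged arrays, again with no FR13A array above background, the log2 difference was -7.06. KSL10 was measured by 1 probe. With another background correction, normexp, over all 12 arrays its difference was -4.13 and did not pass (limma adjusted p = 0.197); with that correction on the 6 control arrays alone it passed.

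None of the other 12 measured genes of diterpenoid synthesis was called. CYP99A3 (Os04g0178400), a cytochrome P450 of the momilactone cluster on chromosome 4, had levels of -2.88, -1.98 and 0.88 in FR13A, against -3.94, -3.38 and -3.85 in Goda Heenati. The FR13A arrays were all above the Goda Heenati ones, and the array of slide 3 stood far from the rest of its group. The log2 difference of 2.40 ± 0.79 did not pass (limma adjusted p = 0.11). KSL5 (Os02g0571300), a diterpene synthase of the chromosome 2 cluster, had levels of -1.68, -2.08 and -2.47 in FR13A and of -3.15, -4.29 and -4.78 in Goda Heenati. Its groups did not overlap, and the log2 difference of 2.00 ± 0.81 did not pass either (limma adjusted p = 0.226). CYP99A3 and KSL5 had the largest positive differences of the list and were picked for them. Of the other uncalled genes, KSL4 (Os04g0179700), at -1.02, and KSL6 (Os02g0571800), at -0.36, were lower in FR13A. The rest were higher, by 0.14 to 1.20.

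ACO1 (Os09g0451400), an aminocyclopropane carboxylate oxidase that carries out the last step of ethylene synthesis, was lower in FR13A. Its levels were -7.08, -5.99 and -5.21 in FR13A, against -0.35, -0.41 and -1.14 in Goda Heenati. Every Goda Heenati array was far above every FR13A array, and 2 of the 3 FR13A arrays were still above background. The log2 difference was -5.46 ± 0.64 (limma adjusted p = 0.000207). It was -6.73, -5.58 and -4.08 on slides 1, 2 and 3. ACO1 had 1 probe. The other 8 measured ethylene genes, of synthesis, perception and signalling, were not called.

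HB2 (Os03g0226200), a non-symbiotic haemoglobin of the kind that scavenges nitric oxide in plant cells short of oxygen, read -7.46, -8.70 and -8.72 in FR13A and -5.78, -6.61 and -5.99 in Goda Heenati. All Goda Heenati arrays and no FR13A array were above background. The gene was 4.48-fold lower in FR13A (log2 difference -2.16 ± 0.54, limma adjusted p = 0.0277), which is an estimate and not a bound. Its second probe gave -2.02. The call was lost in 9 of 25 alternative analyses, among them quantile normalization (-1.84, limma adjusted p = 0.0513), normexp (-0.63, adjusted p = 1), and those without FR13A control replicate 2 (-1.96) or 3 (-1.95) or without Goda Heenati control replicate 1 (-1.99) or 3 (-2.1), where the adjusted p ran up to 0.107 over these 4. Under submergence all 6 arrays were above background and the log2 difference of -0.49 was not called. The other 6 measured genes of redox control and haemoglobins were not called.

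Ehd2 (Os10g0419200), a zinc finger transcription factor that promotes flowering, was higher in FR13A. Its levels were -4.0, -3.45 and -3.22 in FR13A, against -6.79, -5.79 and -5.74 in Goda Heenati. The groups did not overlap, and 2 of the 3 Goda Heenati arrays were above background. The log2 difference was 2.55 ± 0.41 (limma adjusted p = 0.00195), and under submergence it was 1.64 (adjusted p = 0.0262). With normexp over all 12 arrays it was 2.00 and did not pass (limma adjusted p = 0.335), and with normexp on the 6 control arrays alone it passed (adjusted p = 0.0158).

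Hd1 (Os06g0275000), a regulator of flowering by day length, was the one listed gene whose call changed when the slide was made a block in the fit over 12 arrays. Its levels were -1.28, -1.1 and -6.06 in FR13A and 0.35, -0.42 and -3.31 in Goda Heenati. Slide 3 was low in both genotypes, so the groups overlapped although FR13A was the lower on every slide. The log2 difference of -1.69 ± 1.5 did not pass (limma adjusted p = 0.86), and with the slide as a block it did (adjusted p = 0.0347). In the 6 control arrays alone with the block it did not (limma adjusted p = 0.0755). The other 9 measured genes of flowering time and light were not called.

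IRT1 (Os03g0667500), an iron transporter best known from roots, had levels of -3.54, -2.23 and -1.54 in FR13A, against -4.96, -4.09 and -4.11 in Goda Heenati. All FR13A arrays lay above all Goda Heenati arrays, and all 6 were above background. The log2 difference was 1.95 ± 0.53 (limma adjusted p = 0.0436, or 0.00359 with the slide as a block), and its 3 probes gave 1.95 to 2.1. Without a block the call is at the edge: it was lost in 17 of 26 alternative analyses, 9 of them with a single array left out, where the limma adjusted p reached 0.165. Those arrays were FR13A control replicates 2 and 3, Goda Heenati control replicates 1, 2 and 3, FR13A submerged replicates 1 and 2, and Goda Heenati submerged replicates 2 and 3, and the log2 difference was 1.5 to 2.1 without them. Of the 3 measured root markers IRT1 was the one called. The silicon transporter Lsi1 had a log2 difference of 0.05 and the phosphate transporter PT11 one of 0.54. The part of root tissue in the difference of IRT1 was not tested.

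**Figure D2:**
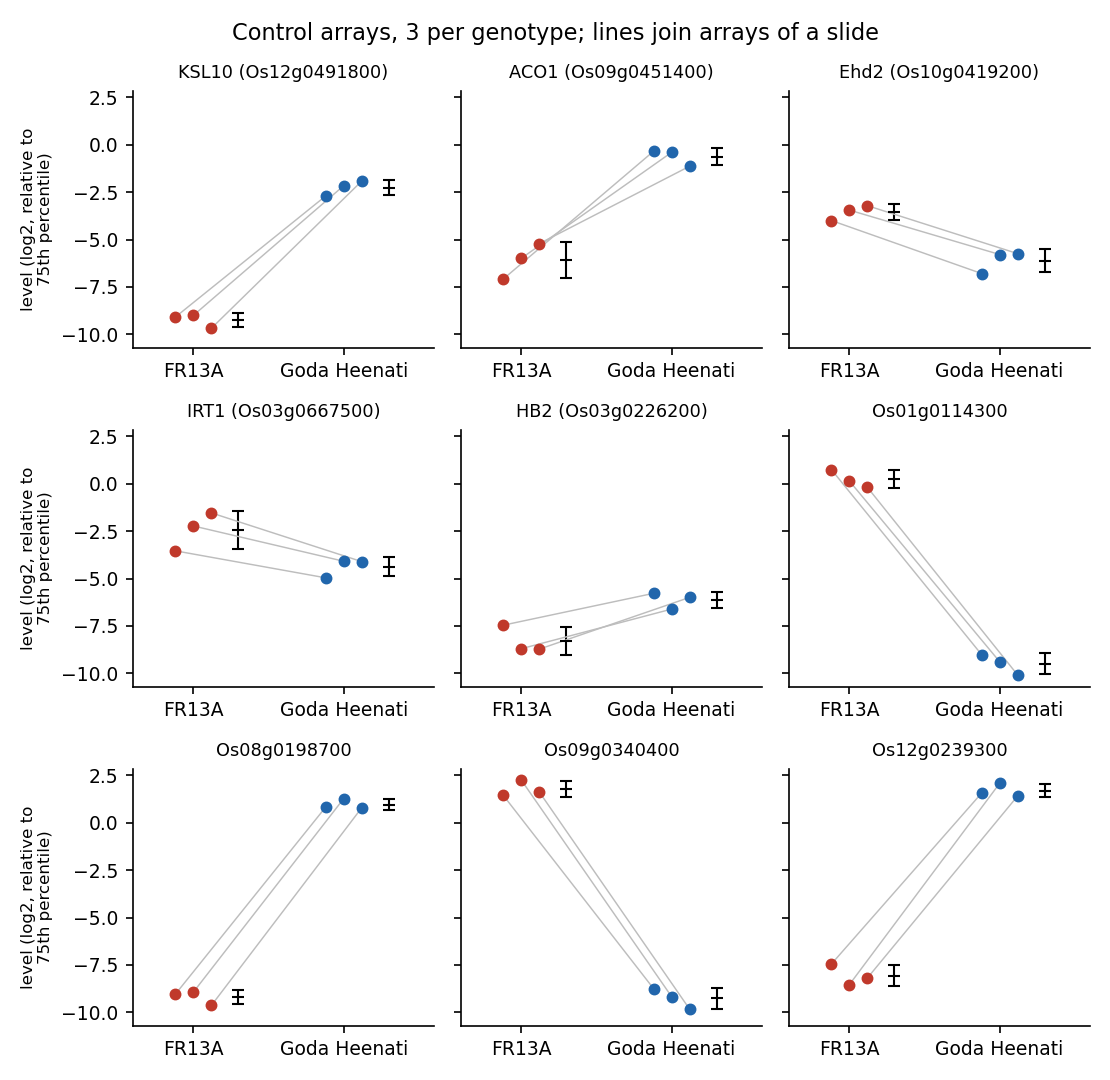
Level (log2, relative to the array's 75th percentile) on the 3 control arrays of FR13A (left, red) and of Goda Heenati (right, blue) for the 5 called listed genes and 4 unnamed loci. Grey lines join arrays of a slide, and black bars give the mean and SD of 3 arrays. In each of the 9 panels the genotypes do not overlap, and the lines of a panel run the same way. The genes and loci shown were chosen by their calls, made on these arrays among others.

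The 2 measured genes of the SUB1 locus were not called. SUB1B (Os09g0287000) had levels of 2.56, 3.99 and 2.84 in FR13A, against 2.25, 3.20 and 2.18 in Goda Heenati, and SUB1C (Os09g0286600) had 1.05, 0.98 and 1.59 in FR13A, against 0.91, 0.62 and 1.12 in Goda Heenati. FR13A was the higher on each slide for both, and the groups overlapped. The log2 differences were 0.59 ± 0.84 for SUB1B, which was saturated on slide 1 in both genotypes, and 0.33 ± 0.33 for SUB1C, and neither passed (limma adjusted p of 0.916 or more). In the 6 control arrays alone with the slide as a block the SE was 0.137 for SUB1B (limma adjusted p = 0.0625) and 0.116 for SUB1C (adjusted p = 0.142). That fit has few residual degrees of freedom, so its SEs rest largely on the spread that limma pools over genes. One other locus had nearly the same profile as SUB1C over 12 arrays, with a difference of 0.29, so the probe may not read SUB1C alone. SUB1A, the member of the locus tied to flood tolerance, was not analysed here.

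Fermentation genes, which carry sugar breakdown on when oxygen is short, were not called in any of 8 measured cases. ADH1 (Os11g0210300), an alcohol dehydrogenase, had levels of 0.86, 0.91 and 0.79 in FR13A, against 1.44, 1.66 and 1.51 in Goda Heenati. The arrays of a genotype lay close together and the groups did not overlap. Its log2 difference of -0.68 was below the 2-fold limit, with an SE of 0.92 (limma adjusted p = 0.996) when the spread is shared with the submerged arrays and of 0.10 (adjusted p = 0.0219) in the 6 control arrays alone with the slide as a block. All 4 ADH1 probes gave a negative difference, of -0.95 to -0.63. ADH2 (Os11g0210500) was above background on no control array of either genotype, so no difference could be measured. PDC1 (Os05g0469600), a pyruvate decarboxylase, differed by 0.30 ± 0.62.

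Gibberellin genes were not called either, among 10 measured. GA20ox2 (Os01g0883800), a gibberellin synthesis enzyme known for the semi-dwarf trait, had a log2 difference of -1.03 ± 0.86 (limma adjusted p = 0.818), with FR13A the lower on each slide by 1.31, 0.41 and 1.38 and 5 probes between -1.06 and -0.94. SLR1 (Os03g0707600), the DELLA repressor of gibberellin response, differed by -0.10 ± 0.19. The reference gene ACT1 (Os03g0718100), an actin, differed by 0.08 ± 0.32 at its brightest probe. Its 5 probes did not give one value: 3 gave 0.08 to 0.27, and 2 gave -1.44 each in control leaves and -1.93 and -1.92 under submergence, none of them called in controls.

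The remaining lists were not called in any measured member, and several had wide errors. They covered 15 genes of abscisic acid and stress response, 8 of the circadian clock, 6 of defence, 6 of jasmonate, 7 of nitrogen use, 7 of phosphate use, 2 of phenylpropanoid and flavonoid synthesis, 5 of starch synthesis, 9 of sucrose and starch breakdown and 11 of plant form, domestication and grain traits. No clock gene was called, and some had a wide spread between slides. LUX (Os01g0971800), an evening clock component, had levels of 2.50, 2.83 and -4.84 in FR13A, against 2.40, 3.51 and -4.85 in Goda Heenati. The array of slide 3 was low in each, and the log2 difference of -0.19 carried an SE of 2.58 without a block. In the 6 control arrays alone the SE of LUX was 2.92 without and 0.198 with the slide as a block, and that of ELF3 (Os06g0142600), another evening component, was 0.293 without and 0.218 with it. TAC1 (Os09g0529300), a tiller angle gene, had levels of -8.63, -9.23 and -9.85 in FR13A and of -4.57, -6.37 and -8.67 in Goda Heenati. It was above background on no FR13A array and on 2 of 3 Goda Heenati arrays, and the difference of -2.70 ± 0.93 did not pass (limma adjusted p = 0.13).

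More genes passed when the spread was taken from the control arrays and the slide was a block. Over all genes, 1699 (7.47%) were called in the 6 control arrays alone, 828 (3.64%) higher and 871 (3.83%) lower in FR13A. With the slide as a block as well 2615 (11.5%) were called, 1316 (5.79%) higher and 1299 (5.71%) lower. Among listed genes 4 were called in the control arrays alone, IRT1 being lost, and 10 with the block. The 5 that joined in that analysis and in no other of these were CPS1, KSL5, SSI, ISA1 and AOS2. CPS1 (Os02g0278700), of gibberellin synthesis, had levels of -4.37, -3.74 and -4.29 in FR13A and of -3.15, -2.69 and -3.45 in Goda Heenati (log2 difference -1.03, limma adjusted p = 0.0129). AOS2 (Os03g0225900), an allene oxide synthase of jasmonate synthesis, had -2.69, -3.05 and -1.06 in FR13A and -0.75, 0.01 and 0.35 in Goda Heenati (-2.14, adjusted p = 0.0283). Neither gene's groups overlapped. The starch synthesis genes SSI (Os06g0160700) and ISA1 (Os08g0520900), a starch synthase and a debranching enzyme, differed by 1.05 (limma adjusted p = 0.0105) and 1.08 (adjusted p = 0.0173), and KSL5 by 2.00 (adjusted p = 0.00962). For SSI and ISA1 the groups overlapped, and FR13A was the higher on each slide. These 5 did not pass with the spread shared by all 12 arrays. The fit with the block on 6 arrays has fewer residual degrees of freedom than the 8 of the fit over 12 arrays. Its small SEs therefore rest more on the spread that limma pools over genes.

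Called loci were not spread evenly over the chromosomes. Chromosome 11 had 182 of 1190 tested loci called (15.3%), with 75 higher and 107 lower in FR13A, and chromosome 12 had 189 of 1296 (14.6%), with 79 higher and 110 lower. On chromosome 3 the share was 4.77%, and on the other chromosomes it ran from 7.2% to 10%. Over all tested genes it was 8.44%. Together chromosomes 11 and 12 held 11% of tested loci and 19.4% of called ones. These shares are descriptions of this array's loci, and loci that lie together are not independent.

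The shares of called loci were also counted in other ways. With probes named for an mRNA record alone the shares were 14.3% on chromosome 11 and 14.4% on chromosome 12, against 3.86% on chromosome 3. Over loci with a sequence record of their own they were 14.8%, 14.3% and 4.30%. Among loci above background on all 6 control arrays they were 8.32%, 7.80% and 2.79%. On the submerged arrays, which share the estimate of spread but no array with the controls, they were 15.8%, 16.9% and 6.39%. Of the genes read in Goda Heenati alone 28.8% lay on chromosomes 11 and 12, and of those read in FR13A alone 15.3%. The pair held 11% of all tested loci. FR13A-only genes were 20 of 1190 tested loci on chromosome 11 and 18 of 1296 on chromosome 12. They were 31 of 1788 on chromosome 7, 35 of 3229 on chromosome 1 and 248 of 22738 over all tested genes. Chromosome 11 is known for many disease resistance gene clusters, and the files do not name the loci, so their kind was not examined.

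**Figure D3:**
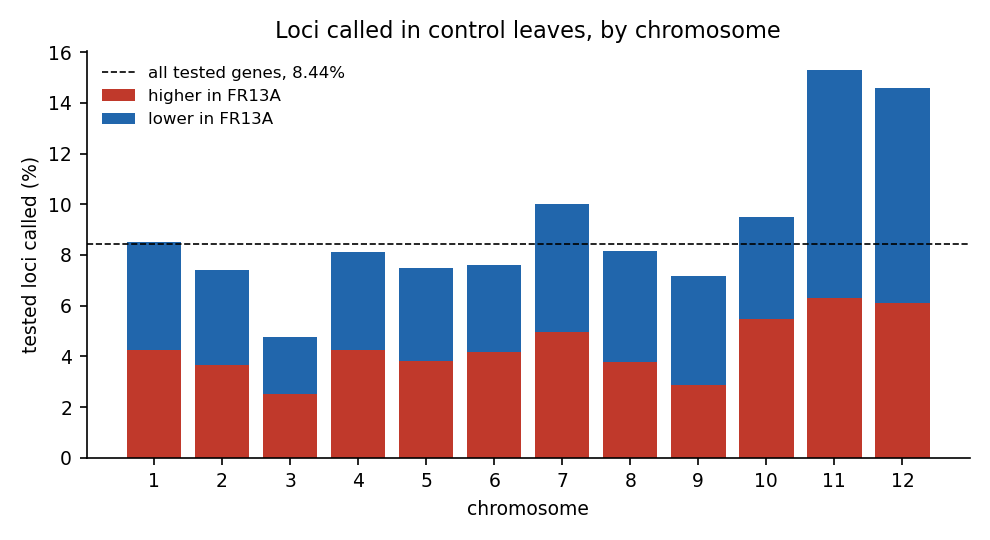
Share of tested loci called in control leaves on each of the 12 chromosomes, in percent, split into loci higher (red) and lower (blue) in FR13A, with the share over all tested genes as a dashed line at 8.44%. Chromosomes 11 and 12 reach 15.3% and 14.6%, and chromosome 3 is the lowest at 4.77%.

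Within chromosomes the called loci were grouped. In windows of 50 tested loci in locus order the median was 3 called loci, 33 of 446 windows had 0 and 45 had 10 or more. Of these 45 windows 16 were on chromosomes 11 and 12, which have 48 windows. The fullest windows held 18 called loci each. One was the last full window of chromosome 11, with 9 higher and 9 lower in FR13A. The other was window 9 of chromosome 12, with 3 higher and 15 lower. On chromosome 3 the fullest window was the first, with 2 higher and 7 lower.

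Neighbouring loci tended to share a call. The next tested locus was called in 20.4% of cases after a called locus and in 7.37% after one that was not called. Over loci with a sequence record of their own the shares were 20.9% and 6.79%. A record of its own does not ensure a separate signal, since Os09g0340400 had one and 2 other loci matched its profile. After a locus higher in FR13A the next was higher in 11.6% and lower in 6.96%, and after a locus lower in FR13A the next was lower in 15.8%. There were 47 runs of 3 or more neighbouring tested loci called the same way, 19 higher and 28 lower in FR13A, holding 154 loci. The runs, like the windows, were counted over all tested loci, those with a shared record included. The longest, on chromosome 5, had 6 loci, all lower in FR13A.

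**Figure D4:**
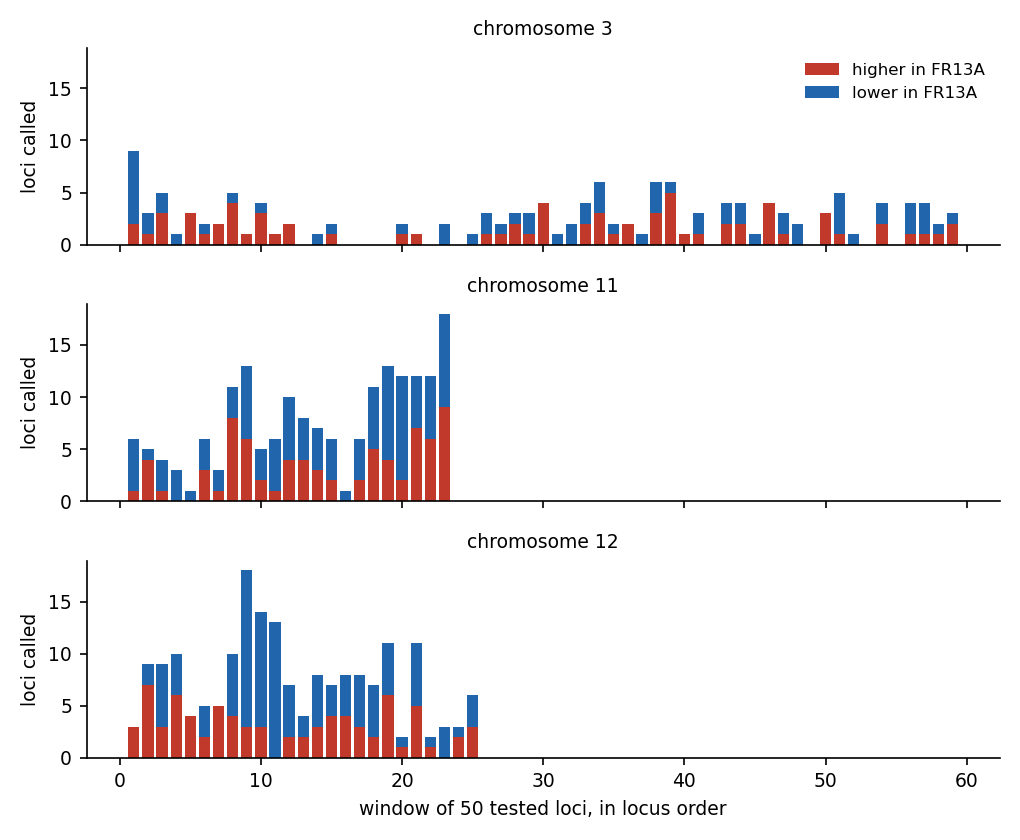
Number of loci called in control leaves in each window of 50 tested loci, in locus order, on chromosomes 3, 11 and 12, stacked as higher (red) and lower (blue) in FR13A. Chromosome 3 has at most 9 called loci in a window, and chromosomes 11 and 12 reach 18, the fullest window of chromosome 12 being lower in FR13A at 15 of its 18 called loci.

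The kind of probe and the number of probes went with the share called. The array's probe names carry 3 main classes. Loci read by mRNA probes were called in 7.21% of 16697 cases, those read by COMBINER_EST probes in 9.64% of 4522, and those read by COMBINER probes in 20.1% of 1373. Of these loci 610 of COMBINER, 113 of COMBINER_EST and 0 of mRNA shared a sequence record with another locus. Over loci with a record of their own the shares were 16.3% for COMBINER, 9.1% for COMBINER_EST and 7.21% for mRNA. Loci with 1 kept probe were called in 9.97% of 16064 cases and loci with several in 4.82% of 6529. Where a called locus had several kept probes, all of them were called in the same direction at 227 of 315 loci (72.1%) and had the same sign at 291 (92.4%). At 5 loci another probe was called in the opposite direction. For called loci with several probes on chromosomes 11 and 12 all probes were called alike at 45 of 59 (76.3%), and on chromosomes 1 to 10 at 182 of 256 (71.1%).

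Probes for precursors of microRNAs, small RNAs that silence other transcripts, were called in 1 of 145 tested cases (0.69%, against 8.44% of all tested genes). The probe named osa-miR439j had levels of -6.67, -5.26 and -6.02 in FR13A, against -8.77, -9.21 and -8.27 in Goda Heenati. FR13A was above background on all 3 arrays and Goda Heenati on 1, with no overlap. The log2 difference was 2.77 ± 0.70 (limma adjusted p = 0.0304), and under submergence it was 1.48 and not called (adjusted p = 0.27). The probe was chosen because it was the 1 called, after its values were seen.

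The genotype difference of control leaves was present in submerged leaves too. Under submergence 2307 genes (10.1%) were called between FR13A and Goda Heenati, 1121 (4.93%) higher and 1186 (5.22%) lower in FR13A. Of the 936 genes higher in FR13A controls 721 (77.0%) were called higher under submergence, and 909 (97.1%) had the same sign. Of the 982 lower in FR13A controls 777 (79.1%) were called lower and 947 (96.4%) had the same sign. No gene was called in opposite directions. The median log2 difference of these genes under submergence was 2.23 for the higher set and -2.76 for the lower set. Across all 22738 genes, which are not independent replicates, the 2 differences had a Pearson r of 0.844 and a Spearman rho of 0.616, and within slides 1, 2 and 3 an r of 0.764, 0.745 and 0.834. The 2 comparisons have no array in common, although arrays of a slide deviate together.

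**Figure D5:**
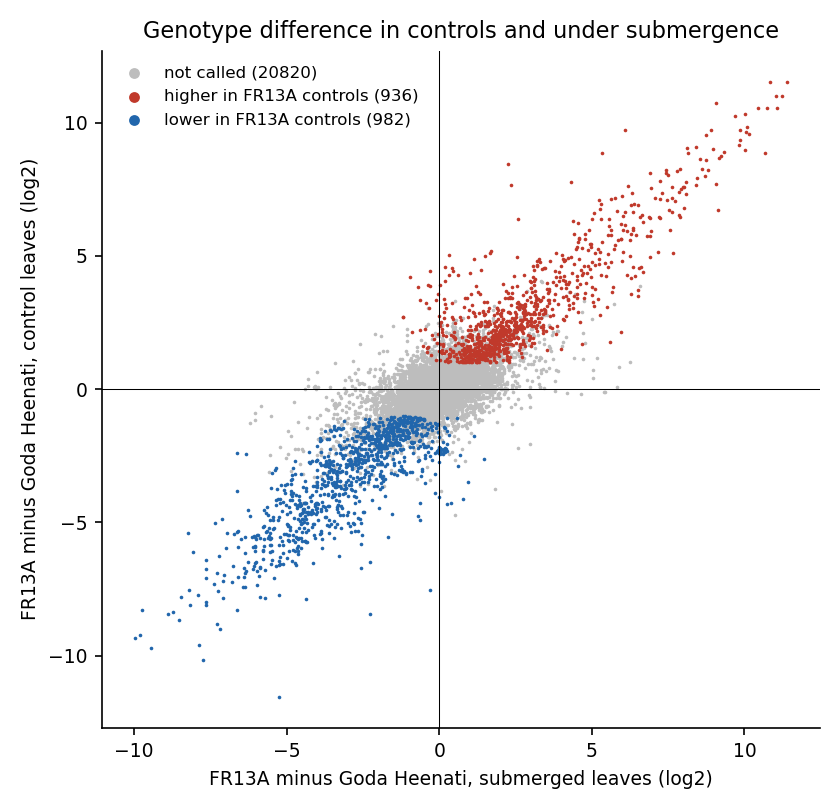
Log2 difference FR13A minus Goda Heenati in control leaves (vertical axis) against the same difference in submerged leaves (horizontal axis), with 1 point per tested gene, coloured by the call in control leaves. The 936 red and 982 blue points lie mostly in the upper right and lower left, and the 2 differences correlate with r = 0.844.

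Of the 151 measured listed genes 11 were called under submergence (7.28%, against 10.1% of all tested genes), 4 higher and 7 lower in FR13A, with KSL10, ACO1 and Ehd2 called in control leaves too. HKT2;1 (Os06g0701700), a sodium transporter, had levels of -1.50, -2.97 and -2.11 in FR13A controls and of -1.64, -2.42 and -1.50 in Goda Heenati controls, where the groups overlapped. Its log2 difference was -0.34 in controls and -2.14 under submergence (limma adjusted p = 0.947 in controls and 0.00298 under submergence). GA2ox1 (Os05g0158600), a gibberellin-inactivating enzyme, was above background on no control array of either genotype, and its log2 difference under submergence was 2.98. The test of the difference between the control and the submerged genotype difference called neither of these genes.

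That test, made over all genes in the same fit, called 21 genes (0.0924%), with the value in controls the more positive for 12 (0.0528%) and the more negative for 9 (0.0396%). Of these 13 were called in controls, and 7 had a log2 difference within 1 in controls while being called under submergence. The signs of the 2 differences were opposite for 7 genes. With the slide as a block 83 genes (0.365%) were called, 48 (0.211%) more positive and 35 (0.154%) more negative, and they included those 21. Without slide 1 it called 0 genes in limma, with 959 at an unadjusted p under 0.05.

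With the slide as a block in the fit over 12 arrays, 2426 genes (10.7%) were called in control leaves, with FR13A the higher for 1228 (5.4%) and the lower for 1198 (5.27%). Under submergence the block gave 2932 (12.9%), 1461 (6.43%) higher and 1471 (6.47%) lower. The blocked control calls included 1909 of the 1918. Leaving out slide 1 gave 1526 control calls, 726 higher and 800 lower in FR13A.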

How the data were processed

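The arrays were 1-colour Agilent rice arrays, per the file headers. Agilent Feature Extraction 10.5.1.1 is named in the submitters' processing notes. The deposited processed signal is a linear intensity. The authors' deposited table of log2 values, whose columns share a median of 10.03, served as an alternative. No source used here gives its scaling step.

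Control spots and outlier spots were left out of 45151 spots per array. From log2 processed signal the array's 75th percentile was subtracted and replicate spots were averaged. The 33071 probes that read well above background throughout 1 group or more were kept, and a locus took its brightest probe. This gave 22593 loci and 145 microRNA precursor probes. One limma 3.58.1 fit (R 4.3.3) of 4 group means over 12 arrays, with 8 residual degrees of freedom, was tested by Benjamini-Hochberg adjusted p under 0.05 and at least 2-fold. Saturated spots were kept. A fold written as at least N sets the mean of the bright genotype over a floor averaged across arrays of the dim genotype. The floor is the larger of the probe's own signal and the lowest one marked above background on an array. Where the probe's own signal is the larger on each array, the fold is the plain difference and no bound. The fold makes no allowance for sampling error. Data were simulated for 22177 genes, with 50 changed at each size and noise independent between arrays. The control comparison recovered 54% of genes changed by 1.5 and 84% of those changed by 4 on the log2 scale, with 5 unchanged genes called. The real data had more genes called and noise shared by slide, so these rates need not hold there.

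The replicate number is the slide. Deviations from group means correlated in each of 18 pairs with a shared number (r from 0.262 to 0.785, against -0.553 to 0.03 for other numbers), so the number was also used as a block. Deviations cancel out within a group, so the values for other numbers are partly set by those for shared numbers and are no separate evidence.

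The files name loci and not genes. Gene names were paired with loci from general knowledge. Of 254 such pairs, the gene table used here held 159 names on the chromosome of the locus; with 12 pairs of an earlier account of these data, 171 were used, and each name should be read with its locus. The 151 measured loci were chosen with earlier results of these data known. Genes are named if called (up to 4 a list), in a fixed set, or, for loci with no name, as the 2 widest in each direction by their probes. Such loci had at least 2 kept probes, all called alike, and were called the same way under submergence. CYP99A3, KSL5, KSL4, KSL6, Hd1, LUX, ELF3, RCCR1, TAC1, CPS1, AOS2, SSI, ISA1, HKT2;1, GA2ox1, Lsi1, PT11 and the leaf markers fall outside these rules or were added after their values were seen. LGF1, in the fixed set, is not analysed here. Normexp correction used the median spot signal, not the mean.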

Additional observations from a re-analysis of the deposited data

Results flagged for a closer look

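The genotype difference itself differed between control and submerged leaves for 21 of 22738 genes by limma's test of the difference between the 2 differences (adjusted p under 0.05 and at least 2-fold), with 12 more positive and 9 more negative in control leaves. On all 6 control arrays 7 of the 21 were well above background. The count was 83 with the slide as a block, between 7 and 44 with single arrays left out, 0 without slide 1 and 0 with normexp background correction.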

How the results depend on the processing

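The count of genes called in control leaves was 546 with normexp background correction, with 70.5% of them higher in FR13A against 48.8% without it, and 754 among genes well above background on all 12 arrays, a set that leaves out genes read in one genotype only. The normexp estimate failed on FR13A submerged replicate 2 (SD of log2 values 1.15, against 4.04 in the processed signal), and with normexp on the 6 control arrays alone, an alternative added after seeing the data, 1480 genes were called, 49.8% of them higher. Under submergence the counts were 609 with normexp, 87.7% of them higher with a median of 0.40 over all genes, and 995 among genes above background on all 12 arrays. For the difference between the 2 comparisons the count was 83 with the replicate block, 44 with quantile normalization, 48 with the authors' deposited table, 1 among genes above background on all 12 arrays, 0 with normexp (356 at an unadjusted p under 0.05 in limma), 0 without slide 1, and 7 to 44 with single arrays left out. Genes read in one genotype alone numbered 154 for FR13A and 158 for Goda Heenati when all 6 arrays of a genotype were required, 255 to 391 and 334 to 444 with single arrays left out, and 304 and 469 without slide 1. In control leaves the count was 1618 to 1918 with single arrays left out. Apart from Hd1, the replicate block of the 12-array fit changed no call of a listed gene. Of the 17 named genes and loci, the calls of KSL10, Ehd2, IRT1 and HB2 were lost in some alternatives, 28 losses in all, and no called value changed sign. Removing slide 1, the shared sequence records and normexp on control arrays alone were chosen after seeing the data. Dim signal limits the bounds, saturation limits bright genes on slide 1, and all rests on 3 arrays per group.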

Other observations

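Loci that share a sequence record gave near-equal values. Of 148 records with 2 or more tested loci, the range of the control log2 difference within a record had a median of 0.13. In 46 of them at least 1 locus was called, and in 38 of these 46 every tested locus of the record was called in the same direction. The record with the most tested loci stood for 50 loci on 12 chromosomes, with control log2 differences of -1.55 to -0.67 and 3 loci called. The record of 23 loci that were lower in FR13A controls, at -2.44 to -2.06, had log2 differences of -0.09 to 0.25 between the genotypes under submergence. All called loci together came from 1778 records.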
